A study of Rattus norvegicus with 47 samples.

Results

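The genes described here encode the respiratory chain and ATP synthase of mitochondria. They were taken from the deposited comparison tables, which name, with a symbol, each gene whose adjusted p between 2 groups was below 0.05 in the authors' test. A gene is a member when a symbol in any of the 9 tables starts with Nduf, Sdh, Uqcr, Cox4 to Cox8 or Atp5, or names a protein-coding gene of the mitochondrial genome. The rule found 93 members among 32545 counted genes, of which 9237 have a symbol. Of these members, 80 are nuclear genes and 13 lie on the mitochondrial genome, which is all of its protein-coding genes. The nuclear members hold 32 subunits of complex I, 4 of complex II, 8 of complex III, 11 of complex IV and 16 of complex V, 3 assembly factors of complex I, 4 of complex II, the ATPase inhibitor Atp5if1 and the pseudogene Ndufv3-ps1. Since a nuclear gene of these families that no table lists carries no symbol, it is not counted here. The adjusted p values of the same 9 comparisons chose the members, so the fold changes and counts below are a description of them and no test. Only 16 members are in 1 table alone and 7 are in 5 or more.

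The respiratory chain passes electrons from NADH (complex I) and succinate (complex II) through complex III to oxygen (complex IV), and the proton gradient it builds drives ATP synthase (complex V). Complexes I, III, IV and V join subunits from both genomes, whereas complex II is wholly nuclear. The kidney cortex is rich in mitochondria, because the proximal tubule reabsorbs most of the filtrate with ATP made by oxidation, chiefly of fatty acids. The mitochondrial genome is transcribed from both strands as long RNAs that are cut into shorter messages, and all its protein messages but ND6 lie on the same strand.

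The study asked how amiloride alters the response of the kidney to lithium, which injures the collecting duct and, over months, leaves fibrosis. Cortex of male Wistar rats was sequenced at 3 times (14 days, 28 days, 6 months) in control rats, in rats fed chow with lithium and in rats given the same chow with amiloride (0.2 mM) in their water. The labels give the lithium as 60 mM in chow, whereas the study's methods give it per kg of dry food, with a lower dose in the first week. At 6 months amiloride had begun after the first month of lithium. The labels state no age. The libraries were made from RNA selected by its poly(A) tail with a kit that keeps the strand.

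Of 47 libraries, 44 were used: 6 control, 6 lithium and 5 lithium-amiloride at 14 days, the same numbers at 28 days, and 4, 3 and 3 at 6 months. The 3 left out do not enter the mean counts of the authors' comparison tables. They were lithium-amiloride replicate 2 at 14 days and, at 6 months, replicate 4 labelled lithium and replicate 4 labelled lithium-amiloride. Total counts per library ran from 10399818 to 15618395 at 14 days, from 14779709 to 17554304 at 28 days and from 21245870 to 25415685 at 6 months. At 6 months the labels and the comparison tables did not use the group names alike. The table named lithium against control shared 98.3% of its genes with the difference between libraries labelled control and lithium-amiloride, and 13.9% with that between libraries labelled lithium and control. The table named lithium-amiloride against lithium shared 100% with libraries labelled lithium and control. The table named lithium-amiloride against control shared 100% with libraries labelled lithium-amiloride and lithium. At 14 and 28 days each table shared at least 98.1% with the pair of groups it names. Aqp2, the water channel of the collecting duct principal cell that lithium is known to lower, was at 19.5 to 33.7 CPM (counts scaled to the size of the library) in the 6-month libraries labelled control, 75.2 to 88.9 in those labelled lithium and 143 to 229 in those labelled lithium-amiloride, against 161 to 217 in controls and 11.1 to 26.5 with lithium at 14 days. The labels are kept below, and every 6-month group is named as labelled. A 6-month difference is therefore not read as an effect of lithium or of amiloride.

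Messages of the mitochondrial genome made up a lower share of the counts in lithium-treated rats at 28 days than in most controls, and all 13 genes shared in it. In the 28-day controls the 13 genes took between 18.2% and 33.02% of all counts, with a median of 31.9%. Lithium libraries ranged from 14.5% to 24.3% around a median of 19.7%. The 5 lithium-amiloride libraries held 18.3%, 22.7%, 17.3%, 16.4% and 15.8%. Control replicate 1 stood at 18.2%, inside the range of both treated groups, while the other 5 controls ran from 31.1% to 33.02%, above every treated library. Aqp2 in that control was 186 CPM, the highest of the 28-day libraries. At 14 days the same share was 13.9% to 21.2% in controls, 13.8% to 17.95% with lithium and 14.7% to 18.9% with lithium-amiloride, so the treated libraries of 28 days lay near the level of the 14-day controls and 5 of the 28-day controls stood above all other groups in use. The counts of the 3 times come as separate tables, so the times and the tables cannot be told apart. At 6 months the share was 16.5% to 24.3% in libraries labelled control, 18.6% to 25.1% in those labelled lithium and 24.8% to 29.9% in those labelled lithium-amiloride.

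**Figure D1:**
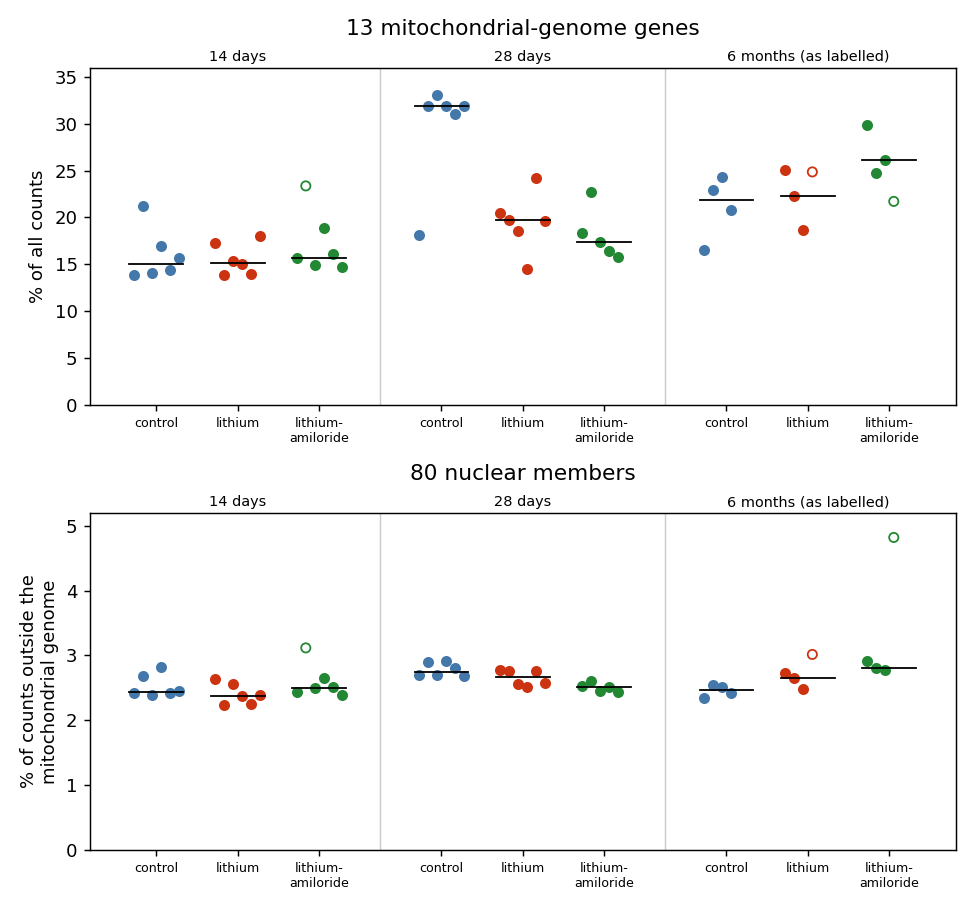
Share of counts held by respiratory chain genes in each library. The upper panel plots the 13 mitochondrial-genome genes as a percent of all counts and the lower panel the 80 nuclear members as a percent of the counts outside the mitochondrial genome, by group and time; each point is 1 library, an open point a library left out, and a line the median of the libraries used. The 28-day controls other than replicate 1 lie at 31.1% to 33.02% in the upper panel and replicate 1 at 18.2%, and the open point at 4.82% in the lower panel is the left-out library labelled lithium-amiloride at 6 months.

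Each of the 13 mitochondrial genes was lower in lithium against control at 28 days by both thresholds, an adjusted p below 0.05 and a change of 0.5 or more in size on the log2 scale (edgeR quasi-likelihood test, Benjamini-Hochberg adjustment over 14140 genes). Such genes made up 3.59% of all genes tested, and 9.73% passed the p threshold alone. Of the 13, 12 were also listed by a table of another time, and all 12 were lower here, against 12.6% of all genes listed at another time. The family was chosen with earlier results of these data known, so that count is no independent test. The median log2 fold change was -0.73, from -1.004 to -0.57, beside 0.0071 over all genes tested. In lithium-amiloride against control all 13 were lower again by the same thresholds (background 6.79% with the fold, 19.3% without), with a median of -0.94 and a range from -1.16 to -0.72. Both comparisons share the same 6 control libraries. Without control replicate 1 the medians were -0.85 and -1.07, and all 13 were still called in both.

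COX1, the catalytic subunit of cytochrome c oxidase, was the most counted of the 13, at 57169 to 123430 CPM in the 28-day controls (median 118690) and 41494 to 78900 in the lithium libraries (median 61150). The 5 lithium-amiloride libraries held 55307, 70070, 50511, 48700 and 44031 CPM of COX1. Only control replicate 1, at 57169, fell among the treated libraries, and the other controls were at 115780 or above. The log2 fold change of COX1 was -0.84 ± 0.20 (SE) with lithium and -1.03 ± 0.22 with lithium-amiloride. COX2, which takes electrons from cytochrome c, had the lowest fold change of the 13, at -1.004 ± 0.21 and -1.16 ± 0.22. COX3, the third core subunit, was at -0.78 ± 0.20 and -0.94 ± 0.21.

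The 7 mitochondrial subunits of complex I, which form its proton-pumping membrane arm, were lower by less than COX2 in the same comparisons. ND3 ran from 828.8 to 2132 CPM in the controls (median 1817) and from 652 to 1208 with lithium (median 935). The lithium-amiloride libraries held 940, 1014, 706, 688 and 705 CPM of ND3. Its log2 fold changes were -0.90 ± 0.19 with lithium and -1.07 ± 0.20 with lithium-amiloride. ND1, ND2, ND4, ND4L and ND5 lay between -0.73 and -0.66 with lithium and between -1.05 and -0.88 with lithium-amiloride. ND6, the single message of the opposite strand, was the least lowered in both, at -0.57 ± 0.19 and -0.72 ± 0.21, from 1082 to 1866 raw counts per control or lithium library. CYTB, the cytochrome b of complex III, was at -0.86 ± 0.20 and -1.02 ± 0.21. ATP6 and ATP8, the membrane subunits of ATP synthase, were at -0.85 ± 0.20 and -0.67 ± 0.18 with lithium and at -1.03 ± 0.21 and -0.89 ± 0.19 with lithium-amiloride. ATP8 overlaps ATP6 and ND4L overlaps ND4 on the genome, and reads in the overlap can be counted to neither or to either gene.

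None of the 13 was called at 14 days in any of the 3 comparisons, by edgeR or DESeq2, and 0 had an unadjusted p under 0.05 by edgeR. Their median log2 fold change was -0.12 in lithium against control and -0.04 in lithium-amiloride against control. At 6 months 3 of the 13 were called in labelled control against labelled lithium-amiloride, all lower, beside 7.42% of all genes (2.1% with the fold threshold, which the 3 also pass). They were ND3 at -0.60 ± 0.17, ND4L at -0.53 ± 0.14 and ND5 at -0.52 ± 0.14. For 9 of the 13 the ranges of these 2 groups did not overlap, which was so for 28.1% of all genes tested. Median change over the 13 was -0.52. COX1 held 48840, 73103, 84109 and 63490 CPM in the libraries labelled control and 115710, 89152 and 96368 in those labelled lithium-amiloride, so its groups did not overlap, and its log2 fold change was -0.57 ± 0.24. The count of 3 rested on single libraries: it was 0 without labelled control replicate 2 or 4 and without labelled lithium-amiloride replicate 1 or 2, 1 without labelled control replicate 1, and 5 without labelled control replicate 3. By DESeq2 the count was 12. DESeq2, fitted without a filter on low counts, called 2845 of all genes in this pair, and edgeR 2417 in either direction. No mitochondrial gene was called by edgeR in the other 2 comparisons at 6 months, where 0 (labelled lithium against labelled control) and 3 (labelled lithium against labelled lithium-amiloride) had an unadjusted p under 0.05 and DESeq2 called 0 and 2.

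ND4 stood apart from the other 12 at 6 months. It held 453, 1646, 637 and 1525 CPM in the libraries labelled control, 537, 565 and 1224 in those labelled lithium and 706, 1785 and 7966 in those labelled lithium-amiloride. Libraries of 1 group thus differed more than the groups did, and its fold change of -1.70 ± 0.71 came mostly from the last of these. ND4 was 0.211% to 2.99% of the mitochondrial counts in those libraries, whereas ND4L, carried on the same message, ran only from 0.344% to 0.442%. At 14 and 28 days ND4 held 26.3 to 117 CPM in the libraries used, and ND4L 534 to 1497. The 28-day fold changes of ND4 rest on these levels, which were below those of ND4L in every library used. What part of the ND4 reads was counted to the gene was not tested. Whether ND4 was counted alike in the tables of the 3 times was not tested, so its levels are not compared between times.

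**Figure D2:**
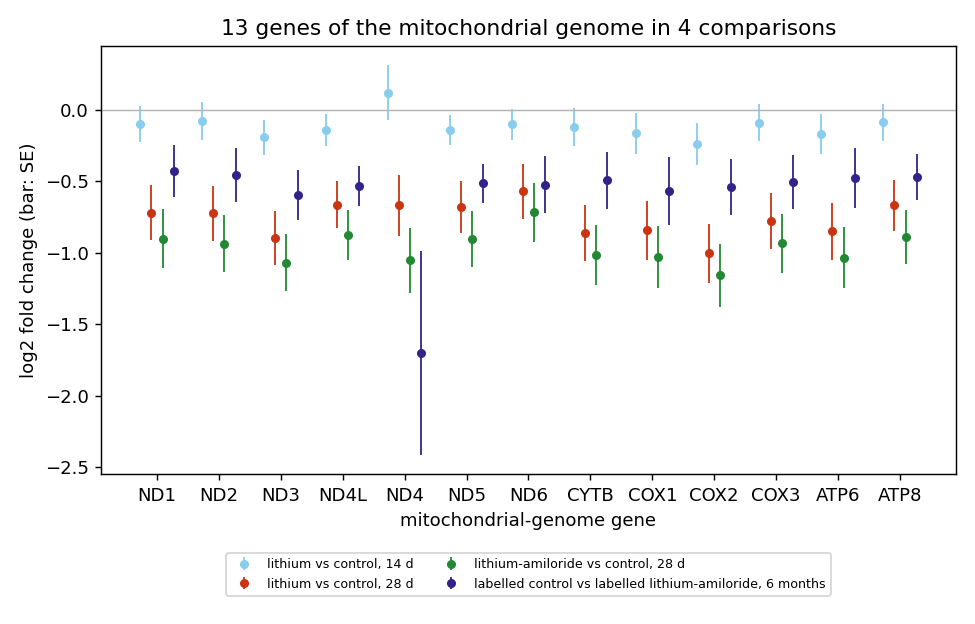
Log2 fold change of the 13 mitochondrial-genome genes in 4 comparisons. Points are fold changes and bars their standard errors, by gene. At 14 days the points lie between -0.24 and 0.12, at 28 days all lie between -1.16 and -0.57, and at 6 months ND4, at -1.70 with a standard error of 0.71, stands below the other 12.

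No respiratory chain gene of either genome was called higher by edgeR in any of the 9 comparisons, in the order each is named. DESeq2 called 3 higher, all in labelled lithium against labelled control. At 6 months the order within a pair follows the authors' comparison names and not the labels. Both 6-month pairs with labelled lithium-amiloride are therefore reversed against 14 and 28 days. In the order of those times their calls would be higher. Among the 80 nuclear members, 18 were called lower in lithium against control at 14 days (background 12.6%), 16 at 28 days (9.73%) and 63 in lithium-amiloride against control at 28 days (19.3%). Labelled control against labelled lithium-amiloride at 6 months had 52 of the 79 tested (7.42%). Where a fold change or call is given below for 6 months without naming groups, it is of this comparison, and lower means lower in the libraries labelled control. Their fold changes were small. The median over the nuclear members was -0.12, -0.11, -0.26 and -0.30 in these 4 comparisons, beside 3e-04, 0.0071, 4e-04 and 0.0224 over all genes tested. With a log2 fold change of at least 0.5 asked as well, 1, 2, 8 and 2 remained (background 3.63%, 3.59%, 6.79% and 2.1%). Leaving out each library in turn gave 0 to 2, 1 to 2, 2 to 12 and 0 to 1 for these counts, so the 2 of 6 months became 0 or 1 whichever library was left out. The 1 of 14 days became 0 without control replicate 3 or 4 or without any lithium replicate but 4, without which it was 2. The 2 of lithium at 28 days became 1 without control replicate 3 or 4 or lithium replicate 3, 4 or 6. The 8 became 4, 3, 5 and 2 without control replicate 2 or 4 and lithium-amiloride replicate 3 or 5. The ranges of the groups did not overlap for 1 nuclear member in lithium against control at 28 days (background 5.06%), for 26 in lithium-amiloride against control (14.9%) and for 63 of 79 at 6 months (28.1%).

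Lithium-amiloride against control at 14 days called 6 nuclear members lower (background 8.62%), 2 of them with the fold threshold (3.27%). Lithium-amiloride against lithium called 0 members of either genome at 14 days (background 1.88%) and 0 at 28 days (0.127%), by edgeR and by DESeq2. These background shares are of genes called lower, and 3.27% and 0.509% were called in either direction. At an unadjusted p under 0.05 by edgeR the nuclear counts were 0 and 38, all 38 lower, and the mitochondrial counts 0 and 0. Nuclear members lay above 0 in 65 of 80 cases in the first and below 0 in 78 of 80 in the second. Their medians were 0.05 and -0.14, beside -0.0057 and -0.0062 over all genes tested. For counts by unadjusted p or by sign no share of all genes was counted, here or at 6 months. Such counts cannot be set beside the shares of adjusted calls. Labelled lithium against labelled control at 6 months called 0 (0.833%) by edgeR, with 9 at an unadjusted p under 0.05, and 3, all higher, by DESeq2, with a median of 0.09 and 72 of 79 above 0. The 0.833% is again of genes called lower by edgeR, while 2.03% were called higher and 2.86% in either direction. Labelled lithium against labelled lithium-amiloride called 8 lower (5.22%), with a median of -0.21, and 32 by DESeq2. The 5.22% is of genes called lower by edgeR. DESeq2, fitted without a filter on low counts, called 875 genes in labelled lithium against labelled control and 2520 in this last pair. In either direction edgeR called 416 and 2004.

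The calls were also counted over the members that a table of another time lists. The family was chosen with earlier results of these data known, so these counts describe it and are no independent test. Of the nuclear members listed at another time, 56 of 73 were called lower in lithium-amiloride against control at 28 days, where 23.1% of all genes listed at another time were. The same count was 47 of 73 in labelled control against labelled lithium-amiloride, against 10.5%. It was 14 of 74 in lithium against control at 14 days, against 15.3%, and 15 of 73 at 28 days, against 12.6%. The 2 comparisons with high counts, 28 days with amiloride and 6 months, shared 44 called nuclear members, which is 44 of 63 and 44 of 52. Lists that each hold most of the members share many of them whatever the genes are. Lithium against control at 14 and at 28 days shared 5 of 18 and of 16 (Ndufb3, Ndufv3, Ndufv3-ps1, Sdhc and Uqcrb), and all but the pseudogene were called at 6 months as well.

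Single libraries moved several of these counts. The share of all genes called can change as well when a library is left out. It is not given here for any count with a library left out, so these shifts are not particular to the members. At 14 days the 18 became 9 without control replicate 4 and 10 without lithium replicate 2, and the 6 with amiloride became 3 without lithium-amiloride replicate 1 or 6. At 28 days the 16 with lithium became 29 without control replicate 1, 6 without control replicate 2, 10 without control replicate 3 or 5, 7 without control replicate 4, and 6, 5 and 10 without lithium replicate 3, 4 and 6. The 63 stayed between 50 and 64 when each library was left out in turn. At 6 months the 52 became 33 without labelled control replicate 1, 25 without labelled control replicate 4 and 15 without labelled lithium-amiloride replicate 1, and the 8 became 1, 0, 1, 4 and 14 without labelled lithium replicate 2 or 3 and labelled lithium-amiloride replicate 1, 2 or 3.

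Complex I takes electrons from NADH. Of its 32 nuclear subunits, 4 were called lower with lithium at 14 days, 7 at 28 days, 25 with lithium-amiloride at 28 days (median -0.26) and 22 at 6 months (median -0.29). The background was 12.6%, 9.73%, 19.3% and 7.42%, so the 4 of 14 days lay near it. Ndufv1, which binds the NADH, ran from 249 to 277 CPM in the 28-day controls and from 237 to 271 with lithium, and changed by -0.04 ± 0.05 there, by -0.12 ± 0.05 with lithium-amiloride and by -0.19 ± 0.05 at 6 months, where alone it was called. Ndufs1, the largest subunit, with iron-sulfur clusters, was lower with lithium at 14 days (-0.19 ± 0.06), and not called at 28 days, when its fold change was 0.20 ± 0.09 with lithium and 0.19 ± 0.09 with lithium-amiloride. Ndufb3 and Ndufv3, accessory subunits picked here after their values were seen because they were called in 5 or more comparisons, moved alike. Ndufv3 held 98.6, 124, 127 and 117 CPM in the 6-month libraries labelled control and 169, 144 and 155 in those labelled lithium-amiloride, with no overlap, and its fold change there was -0.41 ± 0.09. It was -0.26 ± 0.09 and -0.34 ± 0.07 with lithium at 14 and 28 days. Ndufv3-ps1, a pseudogene of Ndufv3 counted 23 to 74 times per library used at 14 and 28 days, was at -0.53 ± 0.18 and -0.56 ± 0.17, and its reads may be shared with the gene it copies.

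Complex II, or succinate dehydrogenase, also works in the citric acid cycle. Of its 4 subunits 3, 1, 2 and 2 were called lower in lithium against control at 14 and 28 days, lithium-amiloride against control at 28 days and at 6 months (background 12.6%, 9.73%, 19.3% and 7.42%). Of its 4 assembly factors, of which 3 were tested at 6 months, 3, 0, 3 and 1 were. Sdhc, a membrane anchor of the complex, was called in 6 comparisons and is named for that, after its values were seen. It ran from 484 to 600 CPM in the 14-day controls (median 513) and from 349 to 448 with lithium (median 401), without overlap, and the lithium-amiloride libraries held 410, 430, 474, 457 and 416. The log2 fold changes of Sdhc at 14 days were -0.41 ± 0.07 and -0.29 ± 0.08. At 28 days it was at -0.23 ± 0.06 with lithium and -0.37 ± 0.07 with lithium-amiloride. The 6-month libraries labelled control held 402, 409, 433 and 400 CPM of Sdhc, those labelled lithium 448, 443 and 431, and those labelled lithium-amiloride 550, 541 and 491, in which each library of the last group was above all others. Sdha, the flavoprotein that oxidises succinate, was at -0.16 ± 0.06 at 14 days and at 0.01 ± 0.08 at 28 days. Sdhb, the iron-sulfur subunit, was called with lithium-amiloride at 28 days (-0.25 ± 0.06) and at 6 months (-0.29 ± 0.06).

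Complex III hands electrons to cytochrome c. Of its 8 nuclear subunits 3, 1, 5 and 6 were called lower in the 4 comparisons named first (lithium at 14 and 28 days, lithium-amiloride at 28 days, 6 months). The background was 12.6%, 9.73%, 19.3% and 7.42%. Uqcrfs1, the Rieske iron-sulfur protein, fell by 0.25 on the log2 scale at 14 days and was at -0.01 ± 0.06 with lithium at 28 days. Uqcrc1, a core protein, was called only in the 6-month comparison, at -0.19 ± 0.06. Uqcrb, an accessory subunit chosen after its values were seen, held 145 to 189 CPM in the 28-day controls, 114 to 145 with lithium and 109 to 128 with lithium-amiloride. Its fold changes there were -0.32 ± 0.08 and -0.50 ± 0.08, and the lithium-amiloride libraries did not overlap the controls.

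Complex IV reduces oxygen to water. Of its 11 nuclear members 1 was called lower with lithium at 14 days, Ndufa4, and 1 at 28 days, Ndufa4l2. Neither count is above the background (12.6% and 9.73%). All 11 were called lower with lithium-amiloride at 28 days (median -0.25, background 19.3%), followed by 8 at 6 months (median -0.32, background 7.42%). Cox4i1, the largest nuclear subunit in its ubiquitous form, held 501 to 598 CPM in the 28-day controls, 452 to 553 with lithium and 478, 489, 453, 455 and 437 with lithium-amiloride. The last group lay below all 6 controls, and the fold changes were -0.07 ± 0.06 and -0.22 ± 0.07. Cox5a, a subunit on the matrix side, held 191, 225, 208 and 226 CPM in the 6-month libraries labelled control and 300, 287 and 266 in those labelled lithium-amiloride, a log2 fold change of -0.41 ± 0.07. Cox5b, a zinc-binding subunit, had the largest fold change of the called complex IV members at 6 months, -0.50 ± 0.13, and was at -0.32 ± 0.09 with lithium-amiloride at 28 days.

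Complex V makes ATP. Of its 16 nuclear members 3 and 5 were called lower with lithium at 14 and 28 days, 14 with lithium-amiloride at 28 days (median -0.30) and 13 at 6 months (median -0.34). The background was 12.6%, 9.73%, 19.3% and 7.42%. Atp5f1a and Atp5f1b are the alpha and beta subunits of the catalytic head. Atp5f1b held 3185 to 3793 CPM in the 28-day controls (median 3427), 3140 to 3512 with lithium and 3090, 3072, 2910, 3212 and 3024 with lithium-amiloride. Its fold changes were -0.06 ± 0.07 and -0.18 ± 0.07, and only the second was called. Atp5f1a was called only with lithium at 14 days (-0.24 ± 0.06), and was at 0.05 ± 0.08 and 0.01 ± 0.08 at 28 days. Atp5me, a small membrane subunit picked after its values were seen, held 174 to 219 CPM in the 28-day controls, 141 to 190 with lithium and 131 to 160 with lithium-amiloride, which is -0.22 ± 0.08 and -0.43 ± 0.08. Atp5if1, the inhibitor that stops the enzyme from running backwards, is the single nuclear member called by edgeR in no comparison, with fold changes from -0.18 to 0.10, and DESeq2 called it lower at 6 months.

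**Figure D3:**
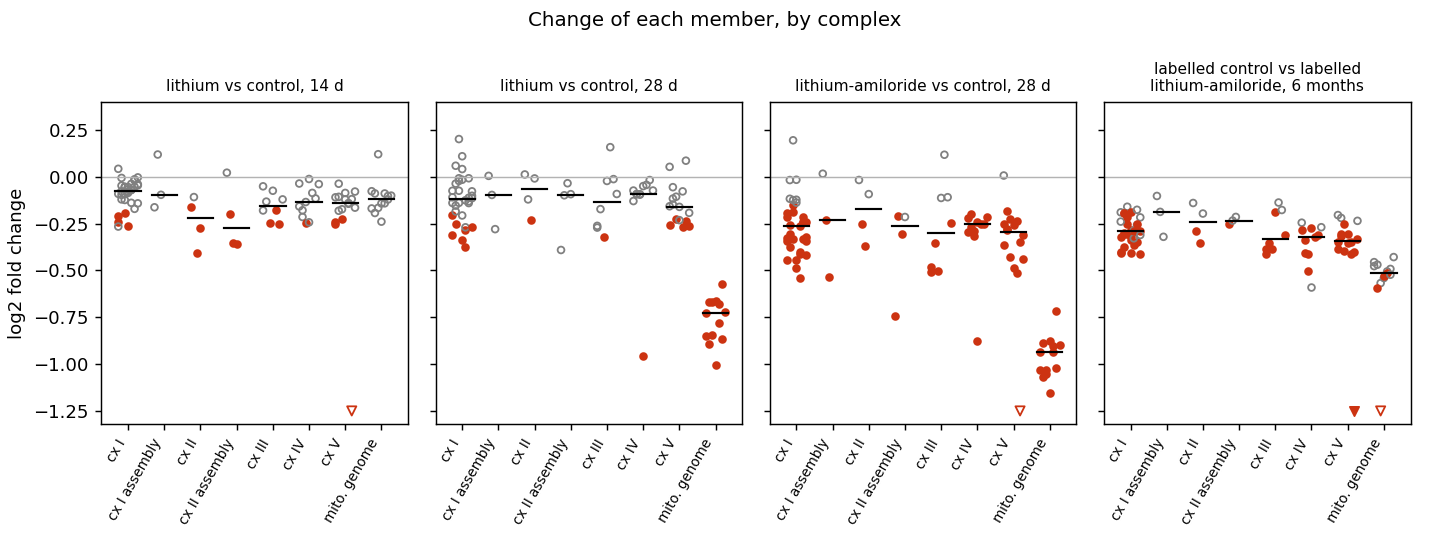
Log2 fold change of each member by complex (cx) in 4 comparisons, with the mitochondrial genome in the last column. Filled red points have an adjusted p under 0.05, open points do not, lines are medians, and triangles stand for values below the axis, which are Atp5pb in complex V and ND4 in the last column; the inhibitor and the pseudogene are not drawn. With lithium at 28 days the mitochondrial genes have a median of -0.73 and the columns of nuclear subunits medians between -0.16 and -0.06.

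Of the members called with lithium at 14 days, 7 were not called with lithium-amiloride at 28 days. They were Ndufs1, Sdha, Sdhd, the assembly factor Sdhaf4, Uqcrfs1, the complex III core protein Uqcrc2 and Atp5f1a. Both the treatment and the time differ between these 2 comparisons. With lithium alone, 5 members were called at both 14 and 28 days. Uqcrc2 was at -0.18 ± 0.06 at 14 days, 0.16 ± 0.09 with lithium at 28 days and 0.12 ± 0.09 with lithium-amiloride. Whether the times differ for these genes was not tested, since each time has a table of its own.

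Promoters of 4 members are printed because they carry the motifs of factors known to act on nuclear respiratory genes in mammals. Of the 80 nuclear members 70 had a promoter by symbol in RefSeq (assembly GRCr8), as the 250 bases before and 50 after the start of the gene. Searched on both strands, the core of the nuclear respiratory factor NRF1 motif, whose letters are the capitals of Sdha below with any base as the sixth, was in 13 of 70 (18.6%) against 4.25% of all promoters of that length and 5.67% of those of protein-coding genes. CCGGAAG, bound by ETS factors such as GABP, was in 24 (34.3%, against 8.75% and 10.7%), and AAGATGGC, the core of the YY1 motif, in 16 (22.9%, against 3.17% and 3.67%). At least 1 of the 3 was in 43 promoters (61.4%), against 14.6% of all promoters and 17.9% of those of protein-coding genes, and no matches of different motifs overlapped in a member. TATAAA was in 4 (5.71%), against 14.2% and 13%. Of 44 promoters of mitochondrial ribosomal proteins 20.5% held the NRF1 motif, 36.4% the ETS motif, 15.9% the YY1 motif and 54.5% at least 1 of them. In the sequences below, read 5′ to 3′ on the strand of the gene, capitals mark the matches: YY1 in Sdhc (chr13:86097976-86098275, minus strand), 3 of NRF1 in Sdha (chr1:30764303-30764602, plus strand), ETS in Cox5b (chr9:46417587-46417886, plus strand), and YY1, NRF1 and ETS in that order in Atp5me (chr14:1464610-1464909, plus strand), the single member with all 3.
Sdhc: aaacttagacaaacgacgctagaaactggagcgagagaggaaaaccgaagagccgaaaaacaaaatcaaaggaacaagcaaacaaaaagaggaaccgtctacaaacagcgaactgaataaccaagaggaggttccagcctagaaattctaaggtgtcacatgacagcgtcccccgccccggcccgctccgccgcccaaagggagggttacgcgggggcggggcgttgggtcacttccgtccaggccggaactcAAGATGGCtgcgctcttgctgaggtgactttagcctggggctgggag
Sdha: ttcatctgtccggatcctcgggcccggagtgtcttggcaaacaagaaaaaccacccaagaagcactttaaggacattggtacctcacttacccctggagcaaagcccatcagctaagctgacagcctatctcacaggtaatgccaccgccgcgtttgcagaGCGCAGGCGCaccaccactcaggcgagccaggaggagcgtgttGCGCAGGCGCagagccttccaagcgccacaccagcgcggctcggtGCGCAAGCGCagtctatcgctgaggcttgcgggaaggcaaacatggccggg
Cox5b: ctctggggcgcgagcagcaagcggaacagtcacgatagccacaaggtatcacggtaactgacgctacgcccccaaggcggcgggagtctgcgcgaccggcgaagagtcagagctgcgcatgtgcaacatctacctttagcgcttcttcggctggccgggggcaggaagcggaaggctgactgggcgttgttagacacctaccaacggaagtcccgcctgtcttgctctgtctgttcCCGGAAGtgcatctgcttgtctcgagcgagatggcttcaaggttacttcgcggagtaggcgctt
Atp5me: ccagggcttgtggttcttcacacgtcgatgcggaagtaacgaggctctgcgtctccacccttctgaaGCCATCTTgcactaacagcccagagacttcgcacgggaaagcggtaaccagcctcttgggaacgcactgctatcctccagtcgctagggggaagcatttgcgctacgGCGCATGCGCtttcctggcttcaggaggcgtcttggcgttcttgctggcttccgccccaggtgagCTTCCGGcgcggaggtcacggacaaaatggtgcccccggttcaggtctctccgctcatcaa
A match is a run of letters and no measured binding. Sdhc, called in 6 comparisons, and Sdha, called in 1, belong to the same enzyme and hold different motifs.

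A few members were so low, or so uneven, that their fold changes rest on few counts or single libraries. Atp5pb, whose symbol names subunit b of ATP synthase, was at 0.238 to 1.86 CPM in 37 of the 44 libraries. The exceptions in use were 14-day control replicates 3, 4 and 5 (17.2, 53.9 and 32.3 CPM), lithium replicate 4 at 14 days (18.6), control replicate 6 (47.7) and lithium replicate 6 (50.7) at 28 days, and labelled lithium-amiloride replicate 2 at 6 months (49.99). Such libraries occurred in all 3 groups. The called fold changes of Atp5pb, -3.87 ± 1.09 with lithium-amiloride at 14 days and -4.80 ± 1.37 at 6 months, come from them, and the second turned to 0.46 without labelled lithium-amiloride replicate 2.

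Ndufa4l2, a relative of the complex IV subunit Ndufa4 that hypoxia is known to raise, had the lowest fold change of the called nuclear members with lithium at 28 days. It ran from 1.52 to 3.34 CPM in the controls and from 0.937 to 1.98 with lithium, and lithium-amiloride libraries held 1.68, 1.94, 1.17, 1.28 and 1.31. Raw counts were 17 to 43 per library. Control replicate 1 was again inside the treated range, and the other 5 controls, at 2.70 to 3.34, were above it. The fold changes were -0.96 ± 0.21 and -0.88 ± 0.22. Sdhaf1, an assembly factor of complex II, was called with lithium-amiloride at 28 days at -0.74 ± 0.26 from 8 to 36 counts per library, and had 0 counts in 11 of 12 libraries at 6 months. No member was found for the muscle, lung or heart forms Cox4i2, Cox6a2, Cox7a1 or Cox8b.

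**Figure D4:**
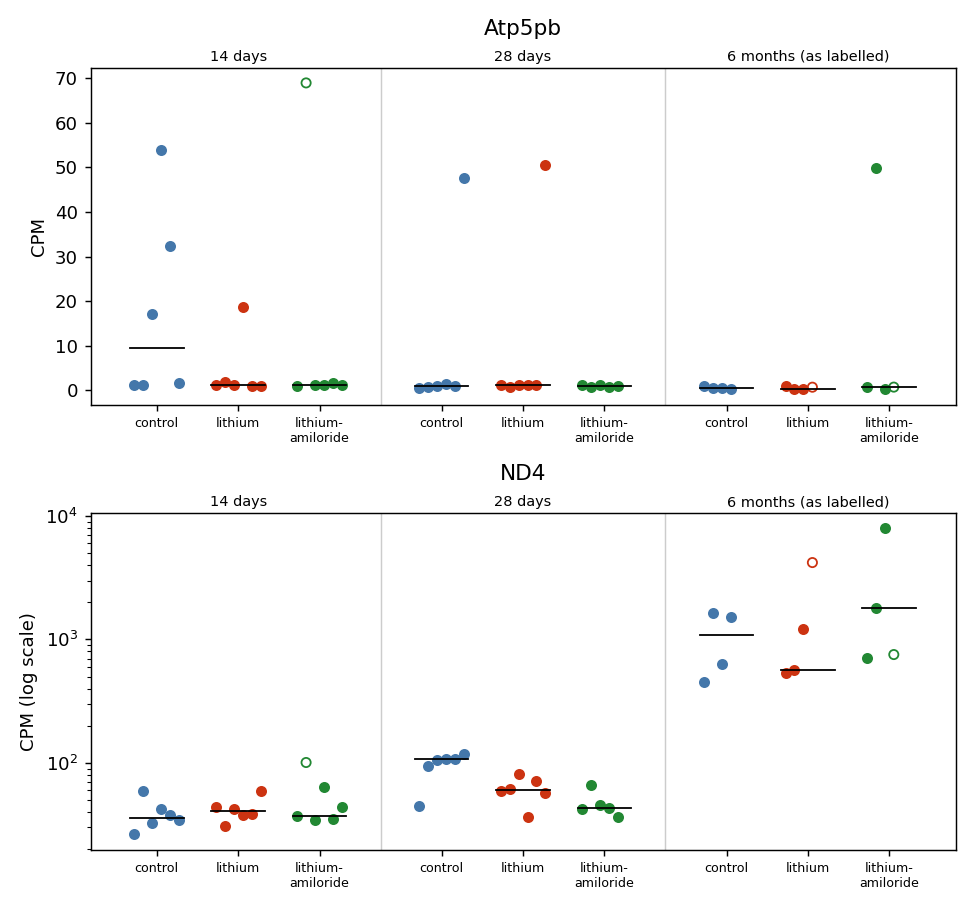
CPM of Atp5pb (linear axis) and ND4 (log axis) in each library, by group and time. Points are libraries, open points the 3 left out, and lines medians of the libraries used. Atp5pb is near 1 CPM in most libraries and between 17.2 and 53.9 CPM in 7 of those used, and ND4 at 6 months runs from 453 to 7966 CPM within the libraries used.

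Other mitochondrial genes were counted from lists that could hold only genes with a symbol. Proteins of the mitochondrial ribosome, which translate the 13 mitochondrial messages, were called lower for 6, 12, 43 and 28 of 53 in the 4 comparisons (lithium at 14 and 28 days, lithium-amiloride at 28 days, 6 months), with medians of -0.08, -0.16, -0.31 and -0.25. Of all genes tested 15.3%, 9.77%, 18.4% and 9.21% were called higher in the 4 comparisons and 12.6%, 9.73%, 19.3% and 7.42% lower, beside which the counts of each list stand. Mrps6 was called higher at 14 and 28 days with lithium (0.81 ± 0.12 and 0.86 ± 0.12), and Mrps25 lower at 6 months (-0.52 ± 0.06). Proteins of the cytosolic ribosome, a list added after the data were seen, moved otherwise with lithium at 14 days, when 44 of 66 were called higher (15.3% of all genes) and 0 lower, at a median of 0.25. With lithium-amiloride at 28 days 39 of 66 were called lower, at a median of -0.24, near that of the nuclear respiratory genes. At 6 months 3 of 68 were called lower, at a median of -0.04, while the nuclear respiratory genes had a median of -0.30. The largest called changes of that list at 6 months were of 2 gene IDs with the symbol Rpl35a (-2.64 ± 0.74 and -1.86 ± 0.46), which were at 0.134 to 0.979 CPM in the libraries labelled control.

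Enzymes of fatty acid oxidation were called lower for 8, 4, 11 and 4 of 15, and none higher. Eci1, which isomerises unsaturated intermediates, was at -0.59 ± 0.14 with lithium at 28 days. The citric acid cycle with pyruvate dehydrogenase had 8, 0, 4 and 4 of 15 lower, and 2 higher with lithium-amiloride at 28 days. Pdk4, the kinase that switches pyruvate dehydrogenase off and is in the glycolytic list here, was called higher with lithium at 14 days (0.85 ± 0.18) and 28 days (0.93 ± 0.23) and in labelled control against labelled lithium-amiloride (1.33 ± 0.14). Of 14 glycolytic genes 5, 6, 6 and 3 were higher and 3, 1, 2 and 5 lower. Hk1, which phosphorylates glucose, rose by 0.62 ± 0.12 and 1.022 ± 0.20 with lithium at 14 and 28 days, and it was higher at 6 months (0.52 ± 0.15). Pfkp, a phosphofructokinase, was higher with lithium at 14 days (0.63 ± 0.14). Eno1, an enolase, was lower at 14 days (-0.60 ± 0.07), at 28 days (-0.26 ± 0.09) and at 6 months (-0.72 ± 0.09).

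Among 13 carriers and coenzyme Q genes 1, 2, 2 and 2 were higher and 6, 0, 3 and 6 lower. Ucp2, a carrier of the uncoupling protein family, was higher with lithium at 14 days (1.32 ± 0.08), at 28 days (0.81 ± 0.10) and in labelled control against labelled lithium-amiloride (1.003 ± 0.11). Ckmt1, a mitochondrial creatine kinase, was higher with lithium at 28 days (0.80 ± 0.15). Cycs, the cytochrome c between complexes III and IV, was lower at 14 days (-0.54 ± 0.07) and at 6 months (-0.51 ± 0.14), with -0.01 ± 0.07 for lithium at 28 days. Of 21 assembly factors outside the member rule 7, 3, 11 and 8 were lower, Cox16 of complex IV at -0.56 ± 0.09, -0.40 ± 0.08, -0.53 ± 0.08 and -0.45 ± 0.10. Of 11 genes for copying and transcribing the mitochondrial genome 2, 3, 6 and 0 were lower, at medians of -0.03, -0.14, -0.25 and -0.08. The 10 regulators of mitochondrial biogenesis had 1, 3, 4 and 2 higher and 2, 0, 1 and 0 lower. Among these, Ppargc1b, a coactivator of respiratory genes, was higher with lithium at 28 days (0.81 ± 0.17), as was Esrrb, a nuclear receptor of the same network (1.45 ± 0.40). In the 6-month libraries labelled control, against those labelled lithium-amiloride, Ppargc1b (0.71 ± 0.21) and its relative Pprc1 (0.54 ± 0.11) were higher. Mitophagy and dynamics genes had 1, 1, 1 and 2 of 7 higher and 1, 2, 4 and 1 lower. Of 8 mitochondrial antioxidant enzymes 2, 0, 5 and 2 were lower, Gpx1 at -0.53 ± 0.10 at 6 months.

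**Figure D5:**
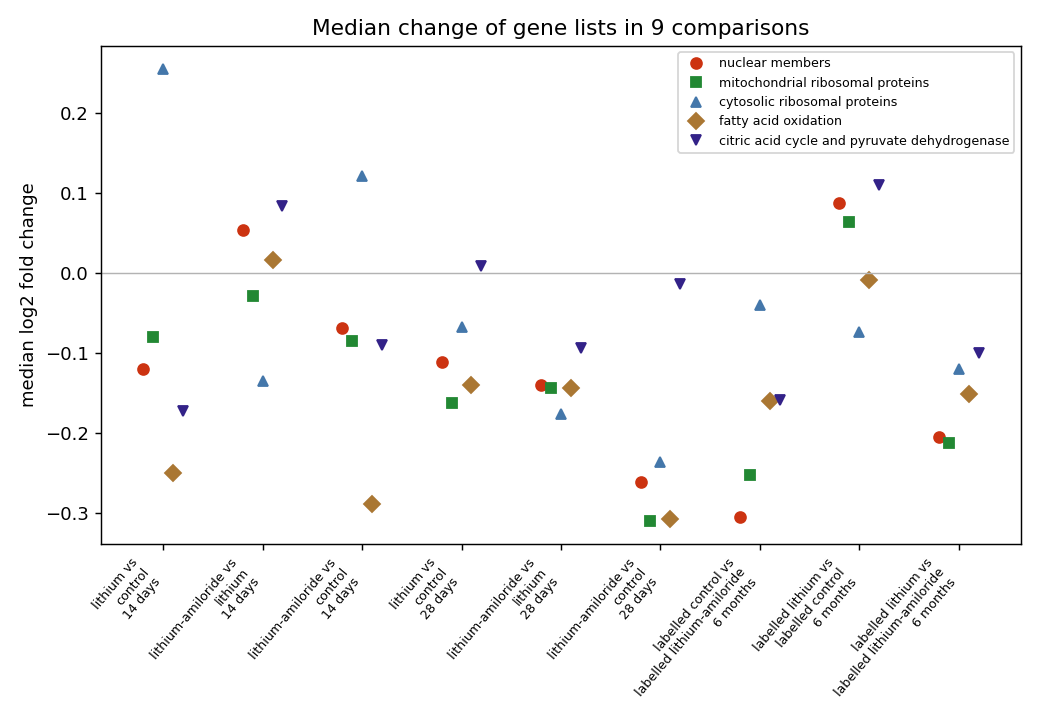
Median log2 fold change of 5 gene lists in the 9 comparisons. Each symbol is the median over the tested genes of a list. The nuclear respiratory genes run from -0.30 to 0.09, and the cytosolic ribosomal proteins, at 0.25 with lithium at 14 days, lie on the other side of 0 from them there.

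The cortex holds many cell types, and in whole tissue fewer cells of a type and less RNA per cell cannot be told apart. Markers of the proximal tubule, a segment rich in mitochondria, were called lower for 4 of 10 with lithium at 14 days (background 12.6%). Their summed level was then 18188 to 20313 CPM in controls and 14998 to 16718 with lithium, without overlap. At 28 days 3 of 10 were higher with lithium (9.77%), and 3 higher (18.4%) and 3 lower (19.3%) with lithium-amiloride. Their sum at 28 days was 13125 to 18154 CPM in controls, 15207 to 17898 with lithium and 15616 to 17914 with lithium-amiloride. At 6 months 0 of 10 were called (background 16.6% in either direction). The sum was 14241 to 15389 CPM in libraries labelled control and 14384 to 16338 in those labelled lithium-amiloride.

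Other cell types did move at 28 days. Of all genes tested, 9.77% were then called higher and 9.73% lower with lithium, and 18.4% and 19.3% with lithium-amiloride. With lithium at 14 days 15.3% were higher and 12.6% lower, and at 6 months 9.21% and 7.42%. Podocyte markers were lower for 5 of 5 in both treated groups (592 to 1100 CPM summed in controls, 473 to 607 with lithium, 467 to 654 with lithium-amiloride), and endothelial markers for 4 of 5 (414 to 609, 339 to 415 and 282 to 422). Markers of the thick ascending limb, itself rich in mitochondria, were higher for 4 and 5 of 6 (872 to 1735, 1249 to 2907 and 1904 to 3040 CPM). Intercalated cell markers were higher for 5 of 6 with lithium at 28 days and in the 6-month comparison, and macrophage markers for 4, 3, 5 and 1 of 5 in the 4 comparisons. Principal cell markers were lower for 6 and 5 of 6 with lithium at 14 and 28 days, and for 5 of 6 in labelled control against labelled lithium-amiloride at 6 months. White and brown fat markers were high in lithium replicate 1 of the 28-day libraries (sums up to 224 and 15.9 CPM). The part of these cell types in the values of the respiratory chain genes was not tested.

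Among the 3 libraries left out was replicate 4 labelled lithium-amiloride at 6 months. It held the nuclear members at a median of 2.56 times the median of the other 3 libraries of its label, with 74 of 77 above all of them. The mitochondrial members in this library had a median of 1.021 times but were uneven. They ran from 0.132 to 2.318 times, with 3 above and 5 below all the others. Cytosolic ribosomal proteins were raised in it to a like degree (2.48 times, 66 of 66 above), and mitochondrial ones too (2.22 times, 53 of 53). Replicate 4 labelled lithium held the nuclear members at 1.24 times. Cytosolic ribosomal proteins were at 1.26 times in it (61 of 65 above all others of its label) and mitochondrial ones at 1.19 times (50 of 53). Lithium-amiloride replicate 2 at 14 days held the nuclear members at 1.37 times and the mitochondrial genes at 1.71 times. White fat markers were at 19.2 times in it, the 1 brown fat marker counted at 185.5 times and fatty acid oxidation genes at 2.08 times. The part of fat in the respiratory chain values of this library was not tested. With all deposited libraries in the fit, the 52 nuclear and 3 mitochondrial calls of labelled control against labelled lithium-amiloride at 6 months became 0 and 0, the 18 of lithium at 14 days became 10, and the 6 of lithium-amiloride at 14 days became 2.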

How the data were processed

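RNA of rat kidney cortex was sequenced after selection of poly(A) tails. Per the labels, the authors trimmed reads with cutadapt 0.2.6, aligned them to Rnor 6.0 with HISAT2 2.1.0 and used featureCounts 2.0.0 to count reads for each Ensembl gene, and the strand setting of the counting is not given in the sources used here. The deposited count tables, 1 per time, hold raw counts without normalization. The authors' comparison tables, from DESeq2, also hold a mean normalized count per gene (baseMean, a signal), which was used only to find which libraries they had kept: leaving out the 3 named libraries gave back the deposited signal values. Their fold changes, errors, statistics and p-values were not used. Symbols came from these tables, and members and lists were chosen with earlier results of these data known.

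The 3 groups of each time were fitted together with edgeR 4.0.16 in R 4.3.3 (filterByExpr, TMM scaling, quasi-likelihood F test, Benjamini-Hochberg over all genes tested: 14179 at 14 days, 14140 at 28 days, 14532 at 6 months). A call is an adjusted p under 0.05, and the fold threshold is a log2 fold change of 0.5 in size. The SE of a fold change was its size divided by the square root of F. CPM were scaled by TMM over all deposited libraries of a time, and without gene lengths they compare libraries, not genes. Alternatives were DESeq2 1.42.0 (size factors, Wald test), TMM over nuclear genes, no filter, all libraries, each library left out, only 2 groups in the fit and a replicate block. The fit was tested on simulated data.

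Named are the mitochondrial genes, the catalytic and core nuclear subunits, tissue isoforms and the inhibitor, the 3 nuclear members with the largest change called with the fold per comparison, up to 5 members called with the fold in most comparisons, and for each list the 2 largest changes called with the fold in lithium against control or labelled control against labelled lithium-amiloride. Replicates are labelled as separate samples and each label names no animal, so p-values measure the spread between samples. No pair of libraries in a group had counts alike within sampling noise. Counting error alone is small for most members at these depths, and copies or overlapping genes can share reads.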

Additional observations from a re-analysis of the deposited data

Results flagged for a closer look

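Values of 125 groups of 4 to 6 libraries were tested for a library far from the others, and 12 were found, where chance gives about 1 in 20. Of these, 6 belong to control replicate 1 at 28 days. In that library the mitochondrial genome held 18.2% of the counts, where the other 5 controls held 31.1% to 33.02%. Its COX1 was 57169 CPM (others from 115780), its ND3 828.8 CPM (from 1648), its ND4 44.5 CPM (from 94.9), its ND6 66.7 CPM (from 117) and its Ndufa4l2 1.52 CPM (from 2.70). At 14 days control replicate 2 was high in COX1 at 80941 CPM (others 44963 to 56878) and in ATP8 at 2448 CPM, and lithium-amiloride replicate 4 was high in ATP8 at 2318 CPM. Atp5pb stood alone at 18.6 CPM in lithium replicate 4 at 14 days, at 47.7 CPM in control replicate 6 and at 50.7 CPM in lithium replicate 6 at 28 days.

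Libraries left out of the comparisons lay above the control range in 5 values. The mitochondrial genome held 23.4% of the counts in lithium-amiloride replicate 2 at 14 days (controls up to 21.2%) and 24.9% in replicate 4 labelled lithium at 6 months (labelled controls up to 24.3%). Nuclear members held 3.12% and 3.01% of the other counts in these libraries and 4.82% in replicate 4 labelled lithium-amiloride (controls up to 2.82% at 14 days, labelled controls up to 2.54% at 6 months).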

How the results depend on the processing

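In the order each comparison is named, all calls of members were lower except the 3 by DESeq2 in labelled lithium against labelled control. At 28 days the 13 mitochondrial calls of either treated group stayed at 11 to 13 when each library was left out. With all deposited libraries the nuclear counts were 10 with lithium and 2 with lithium-amiloride at 14 days (0 and 0 with the fold threshold). In labelled control against labelled lithium-amiloride they were 0 and the mitochondrial count 0, also with the fold, and in labelled lithium against labelled lithium-amiloride 0. Without a filter the counts with the fold were 0 for lithium at 14 days and 1 for labelled lithium against labelled lithium-amiloride. With only 2 groups in the fit lithium at 28 days had 8 (1 with the fold), and labelled control against labelled lithium-amiloride 1 nuclear call with the fold and 1 mitochondrial call. DESeq2 size factors and TMM over nuclear genes each gave 13 nuclear calls in labelled lithium against labelled lithium-amiloride. DESeq2's test gave 32 there with 2 mitochondrial calls (2 with the fold), 12 mitochondrial calls (8 with the fold) and 1 nuclear call with the fold in labelled control against labelled lithium-amiloride, and 3 nuclear calls in labelled lithium against labelled control. The cause of these changes was not tested, except that more or fewer libraries were fitted.

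With the replicate number as a block, lithium at 14 days had 2 nuclear calls with the fold, lithium at 28 days 8 (1 with the fold), labelled control against labelled lithium-amiloride 2 nuclear (0 with the fold) and 0 mitochondrial calls (0 with the fold), and labelled lithium against labelled lithium-amiloride 0. The numbers do not pair the libraries: same-numbered libraries had correlations over 0.1 in 2 of 16 pairs at 14 days, 4 of 16 at 28 days and 0 of 9 at 6 months, and 2 of 17, 2 of 17 and 0 of 10 libraries correlated best with their own number.

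Leaving out each library in turn gave 9 to 19 nuclear calls for lithium at 14 days (0 to 2 with the fold), 3 to 6 for lithium-amiloride at 14 days (1 to 2), 5 to 29 for lithium at 28 days (1 to 2) and 50 to 64 for lithium-amiloride at 28 days (2 to 12). For labelled control against labelled lithium-amiloride it gave 15 to 52 nuclear (0 to 1) and 0 to 5 mitochondrial calls (0 to 5), and for labelled lithium against labelled lithium-amiloride 0 to 14 (0 to 1) and 0 to 1 (0 to 1). Atp5pb in labelled control against labelled lithium-amiloride ran from -5.38 to 0.46, the last without labelled lithium-amiloride replicate 2. Counts of 8 to 43 per library limit Sdhaf1 and Ndufa4l2 at 28 days.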
